A study of Mus musculus with 9 samples.

Results

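Integrins are transmembrane receptors made of 1 alpha and 1 beta subunit that attach cells to the extracellular matrix. The genes described here encode 8 integrin subunits of epithelium: the alpha subunits Itga2, Itga3, Itga5 and Itgav and the beta subunits Itgb1, Itgb5, Itgb6 and Itgb8. They were taken as a list of names, and every probe set (a group of short probes for 1 transcript) annotated to 1 of these symbols alone was used. This gave 26 probe sets among the 45101 on the array and 8 genes among the 18193 measured. The RNA came from tracheal epithelium of mice hemizygous for a KRT5-GFP transgene, dissociated with enzymes and by dissection and sorted by flow cytometry on GFP and on binding of the isolectin GSI-A3B. All 3 sorted populations carried the transgene, in which the keratin promoter Krt5 drives GFP, and the labels gave no age, sex or background strain. GFP+ lectin+ cells, labelled as basal cells, are called the GFP+ gate, GFP- lectin+ cells, also labelled as basal cells, the lectin-only gate, and GFP- lectin- cells, labelled as columnar epithelium, the columnar gate. Each gate had 3 biological replicates, each on 1 Affymetrix array.

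An alpha subunit largely sets which ligand an integrin holds, and the cytoplasmic tail of the beta subunit recruits talin, kindlins and other proteins that couple it to actin. Itgb1 pairs with Itga2 to bind collagen, with Itga3 to bind laminins and with Itga5 to bind fibronectin. Itgav pairs with Itgb1, Itgb5, Itgb6 or Itgb8 in receptors for ligands that carry an RGD peptide, among them the latent form of TGF-beta, which the pairs with Itgb6 and Itgb8 activate. In airway epithelium, basal cells rest on the basement membrane and are anchored to it through hemidesmosomes, whose integrin is the pair of Itga6 and Itgb4.

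The promoters of the 3 genes that were higher in the GFP+ than in the columnar gate, and of Itgb1, the common partner of Itga3 and Itga5, are shown as the sequence background of these results. Each line holds the 250 bases before the start site on the gene's own strand, from RefSeq on GRCm38.p6. All 8 genes matched an entry, with 10 windows in all. Capitals mark GGGCGG, the GC box, or its reverse complement, and in Itgb1 also GGAATG, the motif of TEAD factors.
Itga3 (chr11:95076715-95076964, minus strand): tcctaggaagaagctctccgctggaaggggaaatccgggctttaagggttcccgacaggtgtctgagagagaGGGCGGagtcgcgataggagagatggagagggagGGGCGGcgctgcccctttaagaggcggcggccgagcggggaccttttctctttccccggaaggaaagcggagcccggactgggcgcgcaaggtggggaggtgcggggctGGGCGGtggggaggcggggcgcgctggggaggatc
Itga5 (chr15:103366792-103367041, minus strand): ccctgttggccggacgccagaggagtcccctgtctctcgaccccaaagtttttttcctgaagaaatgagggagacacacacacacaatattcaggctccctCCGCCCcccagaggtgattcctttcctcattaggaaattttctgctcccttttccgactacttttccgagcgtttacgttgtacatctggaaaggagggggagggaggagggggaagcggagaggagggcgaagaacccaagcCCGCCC
Itgb8 (chr12:119238277-119238526, minus strand): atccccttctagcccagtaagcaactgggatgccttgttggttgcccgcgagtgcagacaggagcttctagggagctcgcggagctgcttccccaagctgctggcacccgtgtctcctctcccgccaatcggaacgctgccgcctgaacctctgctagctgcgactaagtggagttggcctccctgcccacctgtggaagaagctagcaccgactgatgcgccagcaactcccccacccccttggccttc
Itgb1 (chr8:128685404-128685653, plus strand): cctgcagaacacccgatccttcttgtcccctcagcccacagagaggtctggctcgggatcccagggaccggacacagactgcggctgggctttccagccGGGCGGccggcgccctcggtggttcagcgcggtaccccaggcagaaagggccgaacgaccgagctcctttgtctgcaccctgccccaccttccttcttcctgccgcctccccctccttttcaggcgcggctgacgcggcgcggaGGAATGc
The motifs were searched on both strands of windows of 300 bases, which also held the 50 bases after the start. The GC box was found in the windows of 6 of the 8 genes, Itgb6 and Itgb8 being the exceptions, and in 35.7% of all 32851 windows. GGAATG was found in that of Itgb1 and in 14.7% of all windows. TGANTCA, the motif of AP-1 factors, was found in the second window of Itga3 and in 7.81% of all windows, and TATAAA in none of the 10 windows and in 13.6% of all. The GC content of the 4 windows that begin with the lines above was 66.7% in Itga3, 58.7% in Itga5, 60.7% in Itgb8 and 67.3% in Itgb1, with a median of 52.7% over all windows. A match describes the letters in the window and no binding was measured here.

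The gates were checked against lists of marker genes before the integrins were read. Levels are log2 signals, so a step of 1 is a doubling, and a gene was called higher or lower where the adjusted p of limma was under 0.05 and the log2 difference at least 1. Krt5, a keratin of basal cells, lay 5.48 ± 0.45 (SE) higher in the GFP+ than in the columnar gate (adjusted p = 5.76e-05, limma). Trp63, the transcription factor that marks basal cells, lay 5.44 ± 0.20 higher (adjusted p = 1.19e-06). In the lectin-only gate they lay 4.93 ± 0.45 and 4.32 ± 0.20 above columnar. Of 14 basal markers measured, 12 were higher in the GFP+ gate and 10 in the lectin-only gate than in the columnar gate. Foxj1, the regulator of motile cilia, was lower in the GFP+ and lectin-only gates, with differences of -3.21 and -1.86 from columnar and with 11 and 9 of 12 ciliated markers lower. Scgb1a1, the main secretoglobin of club cells, lay between 13.49 and 13.88 on all 9 arrays, but of 15 secretory markers 9 were lower in GFP+ and 7 in lectin-only against columnar, and none was called higher.

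The lectin-only gate, labelled as basal cells, also carried leukocyte transcripts. Ptprc, which encodes the leukocyte antigen CD45, had mean log2 signals of 8.95 ± 0.72 (SD, n = 3) there, 5.41 ± 0.87 in the GFP+ gate and 3.25 ± 0.98 in the columnar gate. Of 23 leukocyte markers measured, 19 were higher in lectin-only than in columnar cells, and 17 were lower in GFP+ than in lectin-only cells. Their summed linear signal ran from 44008.6 to 59359.1 over the lectin-only arrays, from 9861.63 to 14102.4 over the GFP+ arrays and from 20510.3 to 21853 over the columnar arrays. In GFP+ against columnar, 6 of the 23 were higher, among them H2-Aa, at 2.30, and Ptprc, at 2.16 with 1 of 3 columnar arrays above background, and 2 were lower, Lyz2 and Lcp1, at -1.20 and -1.01, with a list median of 0.88. A sum of linear signals is weighted to the brightest probe sets, and here its order differs from that median. The number higher in GFP+ against columnar was 0 with signals below background set to that level. It was 1 without columnar replicate 2, 2 without columnar replicate 1 and 9 with the replicate number as a block. None of the 23 was below background on all 3 arrays of any gate. The 15 fibroblast markers summed to 3608.94 to 4993.98, 3172.31 to 3829.39 and 1131.66 to 1514.96 in the lectin-only, GFP+ and columnar gates, with Lum below background on all 9 arrays. In GFP+ against columnar, 2 of the 15 were higher, Dcn at 4.36 and Fbln1 at 3.37, and 5 lower, with a median of -0.58, so the sum and the median differ in sign. In lectin-only against columnar, 4 were higher and 0 lower. The 10 smooth muscle markers summed to 582.436 to 972.627, 660.938 to 959.523 and 189.979 to 224.411 in the same order, with Myocd below background throughout. The 12 endothelial markers summed to 330.758 to 415.724, 174.408 to 199.52 and 201.938 to 208.201, and Cdh5 was below background on all GFP+ and columnar arrays. Against columnar, 4 of the 12 were higher and 0 lower in lectin-only, and 0 higher and 1 lower in GFP+. Of the 10 smooth muscle markers, 4 were higher in lectin-only and 3 in GFP+, and 0 lower. With signals below background set to that level, 1 smooth muscle and 0 endothelial markers were called in GFP+ against columnar. The median of the array signals was 4.91 to 5.16 on 8 arrays and 5.44 on replicate 3 of the lectin-only gate.

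Comparing the gates, some integrin subunits were called higher in a lectin-binding gate than in the columnar gate. In GFP+ against columnar, 3 of the 8 genes were called higher, Itga3, Itga5 and Itgb8, and 0 lower, with 5.88% of all genes called higher and 5.33% lower. In lectin-only against columnar, 1 of 8 was called higher, Itga5, and 0 lower, against 6.47% and 2.38% of all genes. In GFP+ against lectin-only, 0 of 8 were called in limma in either direction, against 0.896% higher and 2.84% lower among all genes. The 0 lower of 8 in each comparison, and the 1 higher in lectin-only against columnar, lie near these shares of all genes. At an unadjusted p under 0.05, 4, 4 and 2 of the 8 lay higher in the 3 comparisons and 0 lower. The share of all genes at that looser threshold was not computed, here or for the lists below. The percentages above therefore do not serve as background for unadjusted counts. The median log2 difference of the 8 was 1.11, 0.61 and 0.30 in the 3 comparisons, and that of all genes was -0.04, 0.07 and -0.10. All 8 genes passed the filter of a signal above background, 3.56 on the log2 scale, on at least 3 arrays, as did 14276 of all genes. Of all genes called in lectin-only against columnar, 73.1% were higher, or 58.2% with arrays centred on their medians, which moved the median of all genes from 0.07 to -0.17. The same centring moved the share in GFP+ against lectin-only from 24.0% to 35.9%. The comparisons with columnar share its 3 arrays, so their differences are given side by side and not correlated. In such bulk samples fewer expressing cells and less RNA per cell cannot be told apart.

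**Figure D1:**
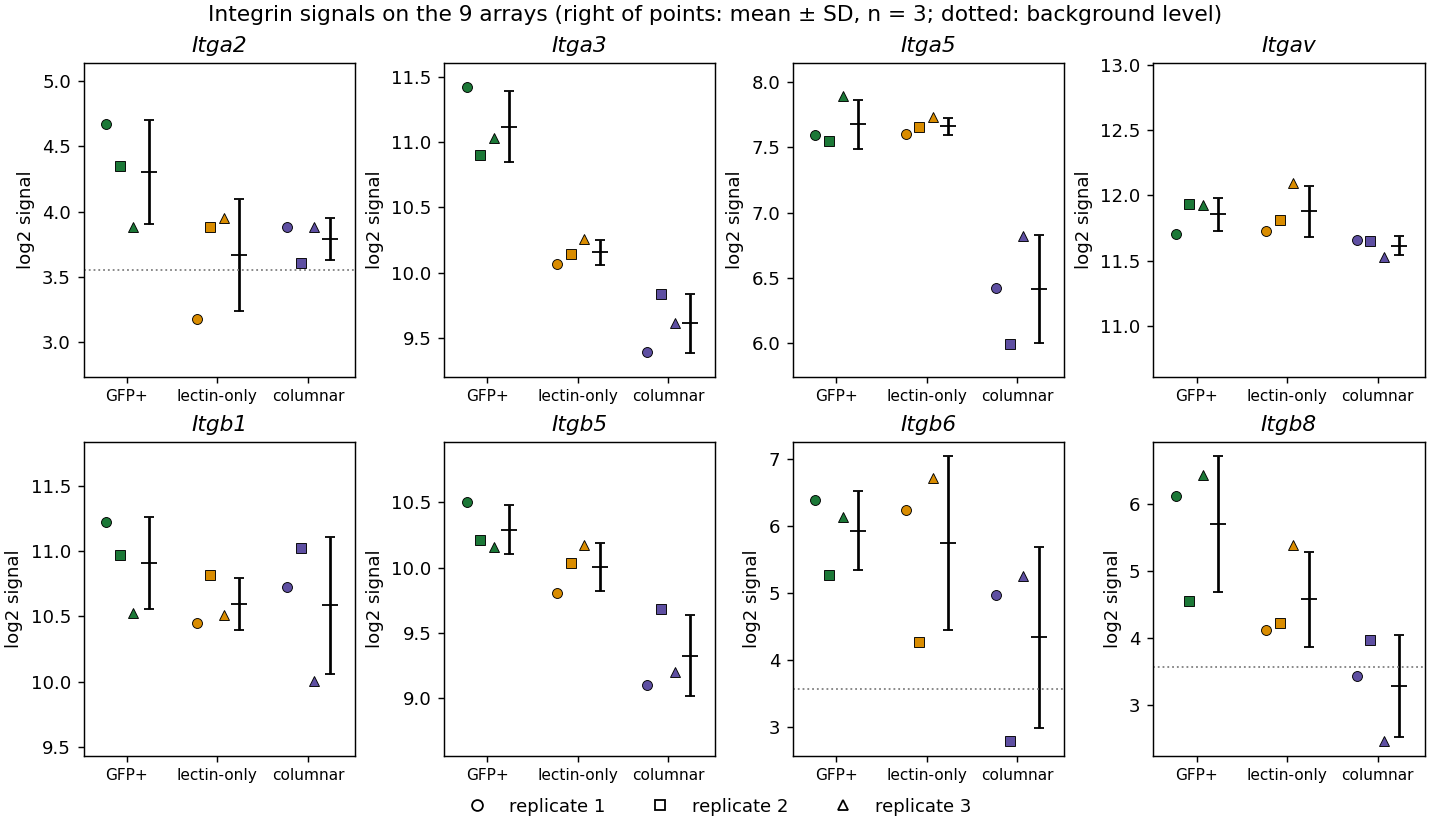
Log2 signal of each integrin gene on the 9 arrays by gate. Symbols are replicates, horizontal marks and bars the mean ± SD of 3 arrays, and the dotted line the background level of 3.56; the vertical scale differs between panels. Itga3 in the GFP+ gate lies at 10.90 and above and in the other gates at 10.26 and below, and Itga5 overlaps between both lectin-binding gates.

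Itga3, the laminin-binding alpha subunit, was higher in the GFP+ gate than in the columnar gate. Its log2 signals were 11.42, 10.90 and 11.03 on GFP+ replicates 1, 2 and 3, 10.07, 10.14 and 10.26 on the lectin-only arrays and 9.39, 9.84 and 9.61 on the columnar arrays. On this probe set, which represents the gene, the 3 gates did not overlap, and the order was GFP+, lectin-only, columnar. GFP+ exceeded columnar by 1.50 ± 0.20 (SE, n = 3 per gate, adjusted p = 0.000744, limma), which is 2.83-fold. GFP+ and lectin-only differed by 0.96 ± 0.20 (adjusted p = 0.0259), just under the minimum difference of 1, and the difference of lectin-only and columnar was 0.54 ± 0.20 (adjusted p = 0.131). The GFP+ against lectin-only difference was called where arrays were centred on their medians, at 1.12, with no minimum difference, and without lectin-only replicate 3, at 1.01, or GFP+ replicate 2, at 1.07. All 3 probe sets of Itga3 were called higher in GFP+ against columnar when probe sets were tested one by one, with differences from 1.12 to 1.50. In GFP+ against lectin-only, 0 of the 3 were called. The probe sets that do not represent the gene overlapped there, at 0.95 (adjusted p = 0.172, limma) and 0.57 (adjusted p = 0.535). The former also overlapped between lectin-only and columnar.

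Itga5, the alpha subunit of the classical fibronectin receptor, was higher in both lectin-binding gates than in the columnar gate. The GFP+ arrays gave 7.60, 7.55 and 7.89, the lectin-only arrays 7.60, 7.66 and 7.73 and the columnar arrays 6.42, 6.00 and 6.82. Every GFP+ and lectin-only array lay above every columnar array, while the first 2 gates overlapped. GFP+ exceeded columnar by 1.26 ± 0.22 (adjusted p = 0.00408, limma, 2.40-fold) and lectin-only exceeded it by 1.25 ± 0.22 (adjusted p = 0.00581, 2.38-fold). Between GFP+ and lectin-only the difference was 0.01 ± 0.22, with a 95% interval from -0.48 to 0.51. Without lectin-only replicate 3, the array whose median stands apart, lectin-only still exceeded columnar, by 1.21 (adjusted p = 0.0199). The sum of smooth muscle markers was also higher in both lectin-binding gates than in the columnar gate, with 3 of 10 called higher in GFP+ and 4 in lectin-only. Fibroblast markers were higher by their sum, but 5 of 15 were lower and 2 higher in GFP+. Of 23 leukocyte markers, 6 were higher (0 with dim signals set to background) and 2 lower in GFP+ and 19 higher in lectin-only. Their part in the Itga5 signal was not tested. These calls rest on 1 of 4 probe sets: the other 3 reached means of 3.75 at most, near or below background, were not called, and with the mean of all 4 the difference was 0.24 in GFP+ and 0.73 in lectin-only against columnar, neither of which was called.

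Itgav, the common alpha subunit of the RGD-binding receptors, was not called in any comparison. Its signals were 11.71, 11.93 and 11.92 in the GFP+ gate, 11.72, 11.81 and 12.09 in the lectin-only gate and 11.66, 11.65 and 11.53 in the columnar gate. The columnar arrays were lowest and overlapped with neither of the other gates, but the steps were small, at 0.24 ± 0.17 (95% interval -0.14 to 0.62) for GFP+ and 0.26 ± 0.17 (-0.11 to 0.64) for lectin-only. The GFP+ and lectin-only gates differed by -0.02 ± 0.17. The probe sets of Itgav disagreed. A dimmer one read 5.67, 6.24 and 5.63 in the GFP+ gate, 5.94, 5.85 and 5.93 in the lectin-only gate and 4.60, 4.69 and 4.66 in the columnar gate. It was called higher by 1.20 ± 0.20 in GFP+ (adjusted p = 0.00353 over all probe sets, limma) and by 1.26 ± 0.20 in lectin-only (adjusted p = 0.00393), and the other 4 probe sets were not called.

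Itga2, the collagen-binding alpha subunit, was close to background. It read 4.67, 4.35 and 3.88 on the GFP+ arrays, 3.17, 3.88 and 3.95 on the lectin-only arrays and 3.88, 3.60 and 3.88 on the columnar arrays, with 1 lectin-only array below background. The gates overlapped. The difference of GFP+ and columnar was 0.51 ± 0.27 (adjusted p = 0.287, limma), that of lectin-only and columnar -0.12 ± 0.27 (adjusted p = 0.867) and that of GFP+ and lectin-only 0.63 ± 0.27 (adjusted p = 0.296). The array holds 1 probe set for it, so these values have no second reading.

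Among the beta subunits, Itgb1 was not called in any comparison. Its signals were 11.23, 10.97 and 10.53 in the GFP+ gate, 10.45, 10.82 and 10.51 in the lectin-only gate and 10.73, 11.03 and 10.01 in the columnar gate. The columnar arrays spanned the values of the lectin-only arrays. GFP+ and columnar differed by 0.32 ± 0.29 (95% interval -0.32 to 0.96, adjusted p = 0.570, limma), and lectin-only and columnar by 0.01 ± 0.29 (-0.63 to 0.65). Of its 6 probe sets, 0 were called in any comparison in limma, 1 lay higher in GFP+ against columnar at an unadjusted p under 0.05, and their GFP+ against columnar differences ran from -0.34 to 0.90. Itga3 and Itga5, which pair with it, were called higher while Itgb1 itself was not, and the difference between the subunits' changes was not tested.

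Itgb5, which pairs with Itgav in a vitronectin receptor, gave 10.51, 10.21 and 10.16 in the GFP+ gate, 9.80, 10.04 and 10.17 in the lectin-only gate and 9.10, 9.68 and 9.20 in the columnar gate. Every array of the lectin-binding gates lay above the columnar arrays, and these gates overlapped with each other. GFP+ and columnar differed by 0.96 ± 0.21 (95% interval 0.50 to 1.43, adjusted p = 0.0123, limma), a difference of 1.95-fold that missed the minimum of 1. Lectin-only and columnar differed by 0.68 ± 0.21 (adjusted p = 0.0741). Of its 4 probe sets, 1 passed in GFP+ against columnar at 1.10 (adjusted p = 0.0169 over all probe sets), and the other 3 lay at 0.96 to 0.97. Their adjusted p-values were 0.132, 0.111 and 0.0175 (limma). On the probe sets at 0.132 and 0.111, the lectin-only and columnar arrays overlapped. Without columnar replicate 2 the gene was called at 1.14, without GFP+ replicate 2 at 1.00 and without GFP+ replicate 3 at 1.03, and it was called with no minimum difference.

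Itgb6, an epithelial partner of Itgav and an activator of latent TGF-beta, was not called in any comparison of the main fit. It read 6.39, 5.26 and 6.13 on the GFP+ arrays, 6.23, 4.26 and 6.72 on the lectin-only arrays and 4.96, 2.78 and 5.25 on the columnar arrays. Replicate 2 was the lowest array of each gate, and on the columnar side it was below background. GFP+ and columnar differed by 1.59 ± 0.75 (95% interval -0.10 to 3.28, adjusted p = 0.229, limma) and lectin-only and columnar by 1.41 ± 0.75 (adjusted p = 0.335). With the replicate number as a block in the fit, both differences were called (adjusted p = 0.0107 and 0.0230, limma). The second probe set read 5.32, 5.48 and 5.23, then 4.98, 4.31 and 4.88, then 4.98, 5.17 and 4.42 in the same gates. There replicate 2 was lowest in the lectin-only gate alone, and the difference of GFP+ and columnar was 0.48.

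Itgb8, the other partner of Itgav that activates latent TGF-beta, was higher in the GFP+ than in the columnar gate. Its signals were 6.12, 4.55 and 6.44 in the GFP+ gate, 4.11, 4.22 and 5.40 in the lectin-only gate and 3.43, 3.96 and 2.45 in the columnar gate, where 1 of 3 arrays was above background. All GFP+ and lectin-only arrays lay above all columnar arrays, and the order was GFP+, lectin-only, columnar with the first pair overlapping. GFP+ exceeded columnar by 2.43 ± 0.56 (95% interval 1.16 to 3.69, adjusted p = 0.0181, limma). With 2 of the 3 columnar arrays below background, the size of this difference is uncertain. Lectin-only and columnar differed by 1.30 ± 0.56 (adjusted p = 0.217) and GFP+ and lectin-only by 1.13 ± 0.56 (adjusted p = 0.406). The call rested on single arrays: the difference was 2.01 without columnar replicate 3 (adjusted p = 0.0648), 2.22 without GFP+ replicate 1 (adjusted p = 0.0637) and 2.06 without GFP+ replicate 3 (adjusted p = 0.0732), none of them called. It was also lost when signals below background were set to that level, which gave 2.01 (adjusted p = 0.0751).

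**Figure D2:**
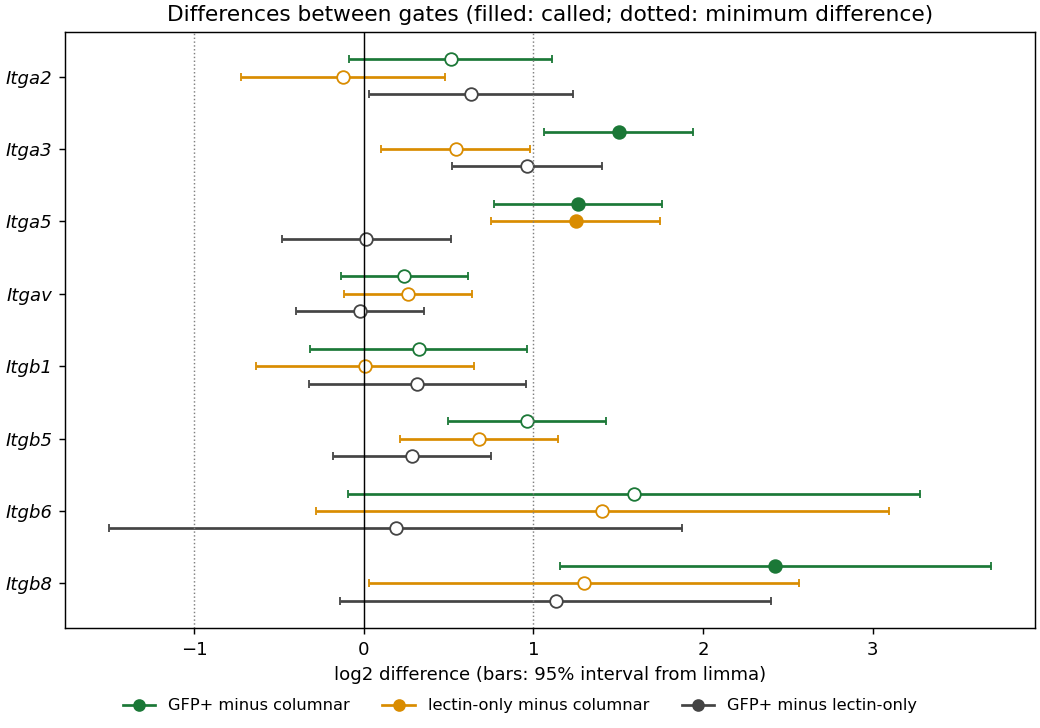
Log2 difference of each integrin gene in the 3 comparisons of gates, with 95% intervals from limma. Filled points were called, dotted lines mark the minimum difference of 1. Itga3, Itga5 and Itgb8 are called in GFP+ minus columnar and Itga5 alone in lectin-only minus columnar, while the interval of Itgb6 reaches from -0.10 to 3.28.

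Of the 26 probe sets, 21 were above background on at least 3 arrays and 5 were not. Those 5 were spread over Itga5, Itgav and Itgb1 and added no call. No probe set of these genes was annotated to a second gene, but the probe sequences were not checked for matches to other genes. In GFP+ against columnar, 3 of 3 probe sets were called for Itga3 and 1 of 5 for Itgav. The numbers were 1 of 4 for Itgb5, 1 of 4 for Itga5 and 1 of 1 for Itgb8. For Itga2, Itgb1 and Itgb6, 0 of 1, 0 of 6 and 0 of 2 were called in any comparison. A dimmer Itga5 probe set, above background on 2 lectin-only and 2 columnar arrays, lay at -0.43 in GFP+ against columnar and was not called.

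**Figure D3:**
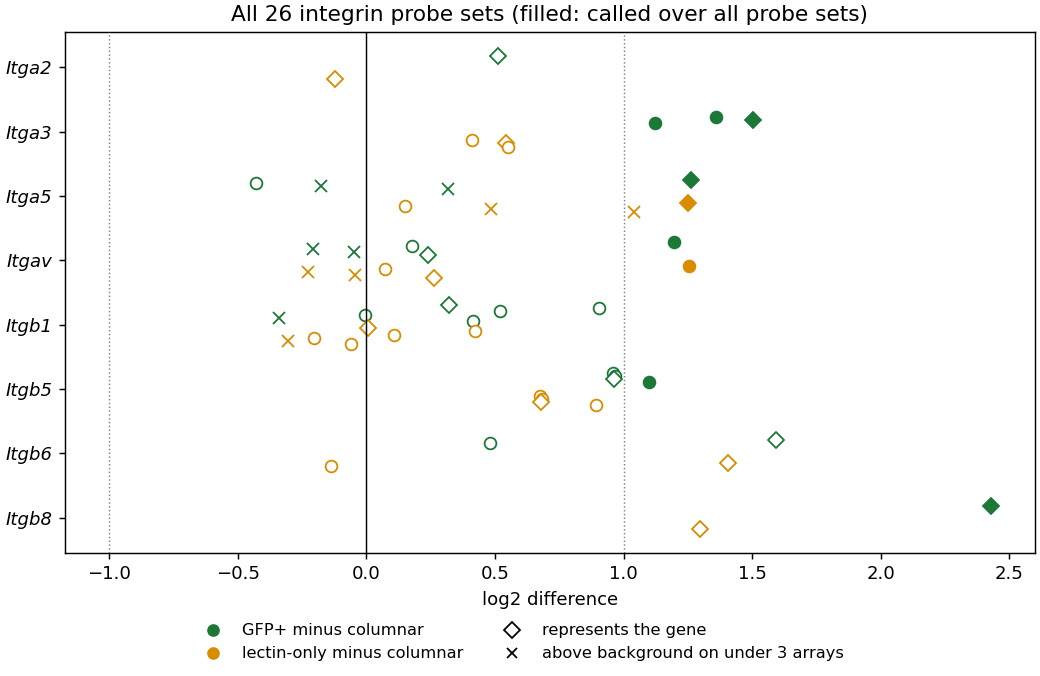
Log2 differences of all 26 probe sets against columnar, in the GFP+ gate and in the lectin-only gate. Diamonds stand for the probe set that represents the gene, crosses for those above background on under 3 arrays, filled symbols for those called over all probe sets. The 3 probe sets of Itga3 lie together from 1.12 to 1.50 in GFP+, whereas those of Itgav reach from -0.21 to 1.20.

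Of the 17 other integrin genes measured, 3 were called higher in GFP+ against columnar, 8 in lectin-only against columnar and 0 lower in either in limma. At an unadjusted p under 0.05, 1 lay lower in GFP+ and 0 in lectin-only. Itga6 and Itgb4, the hemidesmosomal integrin, were among those higher in both. Itga6 read 11.75, 11.83 and 11.86 in the GFP+ gate, 11.50, 11.47 and 11.30 in the lectin-only gate and 10.26, 10.22 and 10.34 in the columnar gate, and Itgb4 read 10.91, 10.47 and 10.07, then 8.80, 9.25 and 8.91, then 7.62, 7.54 and 7.60. Itga6 exceeded columnar by 1.54 ± 0.15 in GFP+ (adjusted p = 0.000146, limma) and by 1.15 ± 0.15 in lectin-only (adjusted p = 0.00115). Itgb4 exceeded it by 2.89 ± 0.23 (adjusted p = 4.87e-05) and 1.40 ± 0.23 (adjusted p = 0.00380), and was also higher in GFP+ than in lectin-only, by 1.49 ± 0.23 (adjusted p = 0.00756).

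Itga9, a subunit that binds tenascin C among other ligands, was the third gene higher in GFP+, by 2.07 ± 0.49 (adjusted p = 0.0190, limma), with signals of 7.09, 5.91 and 6.85 against 3.54, 4.72 and 5.38, of which 2 columnar arrays were above background. With signals below background set to that level it was not called (2.06, adjusted p = 0.0652). Of the 8 genes higher in lectin-only against columnar, the largest differences were those of Itgax, by 4.56 ± 0.35, Itgb2, by 3.26 ± 0.53, Itga4, by 2.88 ± 0.56, and Itgae, by 2.37 ± 0.47, all of them integrins of leukocytes. Itgax read 8.28, 8.08 and 8.84 there and no more than 4.69 on any other array. In GFP+ against lectin-only, 4 of 17 were lower, Itgax at -4.27, Itga4 at -3.01 and Itgal at -1.34, while Itgb2 fell by 3.00, and 1, Itgb4, was higher. Without lectin-only replicate 3 or without GFP+ replicate 2, 2 of 17 were lower. Itga4, above background on 1 GFP+ array, and Itgb2, above it on 2, lost the call when dim signals were set to background, at -2.86 (adjusted p = 0.0644) and -2.95 (adjusted p = 0.0643). The leukocyte markers given above moved with these genes, and their part in the difference was not tested. Itgb2 is itself one of those markers, as is Itgam among the other integrins, so the list is not separate from these genes.

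**Figure D4:**
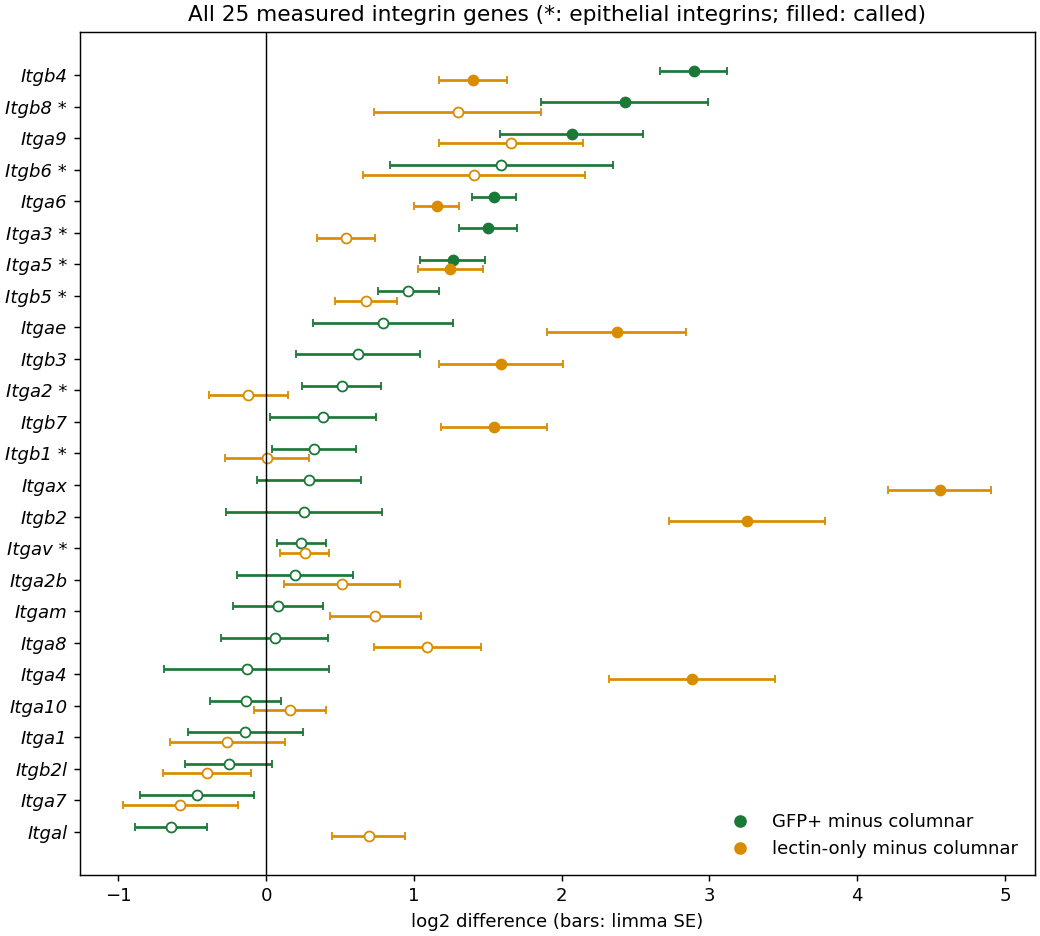
Log2 difference ± SE from limma for the 25 measured integrin genes, GFP+ and lectin-only each minus columnar. An asterisk marks the 8 epithelial genes and filled points were called. Itgb4, Itgb8 and Itga9 lead the GFP+ differences, whereas Itgax at 4.56, Itgb2 at 3.26 and Itga4 at 2.88 stand out in the lectin-only gate and lie at 0.29, 0.26 and -0.13 in GFP+.

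Of 28 genes measured for matrix proteins that integrins bind, 11 were higher and 4 lower in GFP+ against columnar, 6 higher and 0 lower in lectin-only against columnar, and 2 higher and 3 lower in GFP+ against lectin-only. The median difference was 0.32, 0.17 and 0.25. Tgfbi, a secreted RGD protein, read 10.68, 10.99 and 10.71 in GFP+, 10.11, 10.13 and 10.78 in lectin-only and 4.04, 4.03 and 4.58 in columnar cells, differences of 6.57 ± 0.24 and 6.12 ± 0.24. Lamb3 and Lama3, chains of the laminin that holds the hemidesmosomes and a ligand of Itga3, were higher in GFP+ by 5.82 ± 0.32 and 5.25 ± 0.26 (adjusted p = 8.12e-06 and 4.94e-06, limma) and in lectin-only by 3.74 and 4.29. Lamb3 was also higher in GFP+ than in lectin-only, by 2.08 ± 0.32, as was the laminin chain Lamb1, by 1.79 ± 0.34. The collagen chain Col4a2 of basement membranes was higher by 4.42 and 3.92 against columnar, where 1 of 3 arrays was above background. With dim signals set to background the differences were 3.38 and 2.89, still called. Fibrillar collagen genes went the other way in GFP+: the difference from columnar was -3.88 in Col3a1, -3.36 in Col1a2 and -3.20 in Col1a1, and that from lectin-only -3.52, -3.03 and -3.20. In the GFP+ gate 2 arrays were above background for Col3a1 and Col1a1 and 1 for Col1a2. With dim signals set to background, Col1a2 lay at -3.04 against columnar, still called, and at -2.71 against lectin-only (adjusted p = 0.0579), not called. These 3 are themselves fibroblast markers, of which 5 of 15 were lower in GFP+ against columnar.

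Some genes of the adhesion complex at the integrin tails were called higher. Of 29 measured, 7 were higher in GFP+ against columnar, 6 in lectin-only against columnar and 1 in GFP+ against lectin-only. In limma, 0 were lower in any of these comparisons. Of all genes, 5.88%, 6.47% and 0.896% were called higher in the same order, and 5.33%, 2.38% and 2.84% lower. The 0 lower, and the 1 higher in GFP+ against lectin-only, lie near those shares. At an unadjusted p under 0.05, 1, 1 and 3 of the 29 lay lower. Without columnar replicate 1, 2 were higher in GFP+ against lectin-only. The median differences were 0.29, 0.26 and 0.06. Tns1 and Tns4, tensins that bind beta tails, were higher in GFP+ by 5.14 ± 0.52 and 4.94 ± 0.34 and in lectin-only by 3.00 ± 0.52 and 2.77 ± 0.34. Tns4 read 9.35, 9.17 and 8.86 in GFP+, 7.15, 7.15 and 6.59 in lectin-only and 4.74, 3.39 and 4.43 in columnar cells, and was the gene called between the lectin-binding gates, by 2.17 ± 0.34 (adjusted p = 0.00806, limma). Fermt3, the kindlin known from blood cells, was higher in GFP+ by 3.55 ± 0.45 and in lectin-only by 4.25 ± 0.45, with levels of 9.29, 9.83 and 10.09 in GFP+, 10.53, 10.08 and 10.70 in lectin-only and 5.97, 5.28 and 7.29 in columnar cells. Leukocyte markers were highest in the lectin-only gate, and their part in the Fermt3 signal was not tested. Flna, an actin crosslinker that binds beta tails, was higher in GFP+ by 1.79 ± 0.24. In lectin-only, Ptk2b, a kinase related to focal adhesion kinase, was higher by 1.58 ± 0.33.

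Of 12 genes for membrane partners of integrins, 1 was higher and 2 lower in GFP+ against columnar, 1 was higher in lectin-only against columnar, and 0 were called between the lectin-binding gates in limma, where 1 lay higher and 1 lower at an unadjusted p under 0.05. Cav1, the caveolin of membrane caveolae, was higher by 1.95 ± 0.18 and 1.24 ± 0.18. Plaur, the urokinase receptor, fell by 1.36 in GFP+, and the tetraspanin Cd82 fell by 1.00. Without columnar replicate 1 or without GFP+ replicate 3, 1 partner was higher there and 0 lower. Without GFP+ replicate 2, 1 was lower in GFP+ against lectin-only. Between the lectin-binding gates the 2 largest differences were -0.88 ± 0.23 in Cd82 (adjusted p = 0.0657, limma) and 0.71 ± 0.18 in Cav1 (adjusted p = 0.0613).

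The list of TGF-beta ligands, binding proteins, receptors and Smads was described because receptors of Itgav with Itgb6 or Itgb8 release TGF-beta from its latent complex. Of 15 measured, 3 were higher and 1 lower in each comparison with columnar, and 2 were higher in GFP+ against lectin-only. Tgfb1, a ligand that these integrins activate, read 7.28, 6.82 and 6.79 in GFP+, 6.48, 6.38 and 5.80 in lectin-only and 3.79, 4.14 and 4.70 in columnar cells. It exceeded columnar by 2.75 ± 0.28 (adjusted p = 0.000185, limma) and 2.01 ± 0.28 (adjusted p = 0.00172). Ltbp4, a latent TGF-beta binding protein, was higher by 3.26 ± 0.24 and 1.54 ± 0.24, and the coreceptor Tgfbr3 by 3.15 ± 0.25 and 1.62 ± 0.25. Both were also higher in GFP+ than in lectin-only, by 1.71 and 1.54. Ltbp2, of the same binding protein family, was lower in both, at -2.34 and -2.15, with 1 GFP+ and 2 lectin-only arrays above background.

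For the 3 called integrins, the genes with the most similar profile were those with the smallest root mean square (RMS) difference of log2 signals over the 9 arrays, each centred on its own mean. Those nearest to Itga3 were Pcdh18, Flrt3 and Cyp2s1, at 0.16, 0.17 and 0.17, where Itga3 itself varied by an RMS of 0.64. Those nearest to Itga5 were Tmem68, Mettl4 and Anxa8, at 0.12, 0.13 and 0.17, with an RMS of 0.63 for Itga5 itself. Those nearest to Itgb8 were Thbs2, Armcx1 and Mmp16, at 0.40, 0.41 and 0.44, with 1.21 for Itgb8. Among the 8 integrins, the pair with the smallest such distance was Itga3 and Itgb5, at 0.31, and the pair with the largest was Itgb1 and Itgb6, at 1.31. These distances describe 9 arrays of 3 gates.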

How the data were processed

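RNA from the 9 sorted samples was purified with a Qiagen RNeasy micro kit, labelled with Nugen reagents and hybridised to Affymetrix mouse arrays, per the labels' protocols. The deposited values were log2 signals of 45101 probe sets, 1 column per array, made by the authors with RMA, per the submitters' processing notes. Which program ran it, and with what filter, is not given in the sources used here. RMA shares 1 distribution between arrays where it includes quantile normalization, yet the array medians differed, so other scalings were tried.

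The platform annotation gave 1 gene symbol for 34945 probe sets, several for 932 and none for 9160, and 64 were controls. Symbols of 34741 probe sets were updated through a RefSeq table by gene ID. The probe set with the highest mean over 9 arrays represented each of the 18193 genes. Background was set from 80 probe sets of genes for olfactory or vomeronasal receptors, at their 95th percentile. Group means were fitted to all 9 arrays with limma 3.58.1 in R 4.3.3 (lmFit, eBayes without trend, 6 residual degrees of freedom), p-values were adjusted by Benjamini-Hochberg over all genes for each comparison, and the script was tested on simulated data. With 3 arrays a gate, precision is limited, and differences had a median SE of 0.24. Errors of levels are SD over 3 arrays, those of differences SE.

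Members and gene lists were chosen with earlier results of these data known. Genes named in the text were the 8 integrins with all their probe sets, Itga6 and Itgb4, up to 4 called genes of largest difference per other list and comparison (or up to 2 where none was called), Krt5, Trp63, Scgb1a1, Foxj1 and Ptprc, and the 3 genes nearest in profile to each called integrin. Lamb1, Itgal, Lyz2, Lcp1 and the markers below background fell outside that rule and were named after their values were seen. Alternatives covered scaling, choice of probe set, a filter on dim genes, the replicate number as a block, the gates in the fit, variance and array weights, the threshold, each array left out, and, chosen after seeing the data, dim signals set to background. Protein sequences were not used here.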

Additional observations from a re-analysis of the deposited data

How the results depend on the processing

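Over 20 alternatives for each of the 8 integrins in each of the 3 comparisons, 463 of 480 differences kept their side of the threshold, 6 lost their call, 11 gained one and 0 called differences changed sign. In GFP+ against columnar 2 to 4 members were called under every alternative. In lectin-only against columnar, where 1 was called, 0 were with the mean of all probe sets and 2 with the replicate block. In GFP+ against lectin-only, where 0 were called, Itga3 made 1 with arrays centred on their medians, with further quantile normalization and with no minimum difference, and 0 to 1 were called when single arrays were left out. Calls over all genes in that comparison, 680, came to 341 with signals below background set to that level, and to between 373, without GFP+ replicate 1, and 633 when single arrays were left out. With further quantile normalization, 63.8% of the genes called in lectin-only against columnar and 33.5% of those in GFP+ against lectin-only were higher. The labels did not say whether equal replicate numbers pair the samples, and correlations did not settle it. Deviations from the gate means correlated between -0.07 and 0.33 at equal numbers. At other numbers the mean correlations lay between -0.17 and 0.03, which is no separate comparison. The deviations of a gate sum to 0, so these means largely follow from the correlations at equal numbers. With the replicate number as a block, Itgb6 was called higher than columnar, by 1.59 ± 0.31 in GFP+ (adjusted p = 0.0107, limma) and by 1.41 in lectin-only (adjusted p = 0.0230). Genes of the adhesion list called in GFP+ against lectin-only were 1, and 3 with centring, quantile normalization or the replicate block. Signals near background limit Itga2, Itgb6 and Itgb8. The cause of these changes was not tested.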
